A study of Saccharomyces cerevisiae with 12 samples.

Results

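The genes described here make ergosterol, the main sterol of budding yeast membranes, and regulate, bind, store or import sterols. The 40 members were taken from the deposited table by their systematic names, out of 6177 genes, and 39 of them had enough values to be tested among 5890 genes. They comprise 9 genes of the mevalonate part of the pathway, 3 from squalene to lanosterol, 11 from lanosterol to ergosterol, 4 regulators, 7 oxysterol-binding proteins and 6 genes of sterol esters and uptake. Total RNA from SAN1 and from san1 cells of Saccharomyces cerevisiae was hybridized together on each of 12 arrays, 6 for growth in YEPD, a rich medium, and 6 for growth in the medium that the labels name YC. Apart from SAN1 and san1 the labels give no genotype, strain background, mating type, growth phase or culture time, and they do not spell out YC. Arrays 1 to 3 of a medium had SAN1 RNA in channel 1, and arrays 4 to 6 had san1 RNA there. The San1 protein is a nuclear ubiquitin ligase that sends misfolded proteins to the proteasome. The comparison therefore asks how transcript levels differ without it, and whether this depends on the medium.

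Ergosterol is built from acetyl-CoA through mevalonate, farnesyl diphosphate and squalene, and several of the later steps use molecular oxygen, haem or electrons from cytochrome b5. HMG-CoA reductase is the best known point of control. Transcription of many ERG genes is driven by the sterol-responsive factors Upc2 and Ecm22, while sterols move between membranes with oxysterol-binding proteins and are stored as esters in lipid droplets.

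Values are log2 ratios, san1 divided by SAN1, so a number above 0 means more of the transcript in the mutant. The log base is not given in the sources used here, and base 2 was assumed. An array held 5836 to 6180 values. The SAN1 row stood between -4.57 and -2.69 on the 12 arrays once every array had been turned the same way. That row also set the direction of the ratio, so its sign is no separate check of the labels. The labels name no separate cultures. The p-values therefore measure the spread between arrays only, which may be technical. A gene was called where limma's Benjamini-Hochberg adjusted p over all 5890 genes was under 0.05.

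In YEPD, 8 sterol genes rose and 2 fell in san1 cells, and 29 did not pass. The called share was 25.6% of the 39, where 2.05% of all genes tested were called, 1.73% as higher and 0.323% as lower. Members and lists were chosen with earlier results of these data known, so such shares describe them and are no separate support. The 8 that rose were HMG1, ERG13, ERG7, ERG28, ERG2, ERG5, ERG26 and ERG27, all enzymes or partners of synthesis, and the 2 that fell were ERG11 and HES1. In YC, 13 rose, 9 fell and 17 did not pass, a called share of 56.4% where 24.8% of all genes were called, 13.0% as higher and 11.8% as lower. All 10 genes called in YEPD were also called in YC, with the same sign, and they made up 45.5% of the members called there. Among all genes, 1.26% were called in both media with the same sign, which was 74 of the 121 genes called in YEPD. Both media were fitted together, with a shared spread and dye term for each gene. The median over the 39 was 0.04 in each medium, against 0.002 and -0.002 over all genes, so the list as a whole was not displaced by much in either direction. Among the 23 synthesis genes the median was 0.10 in YEPD and 0.16 in YC. The changes were small. No member reached 1.5-fold, and the median size among called members was 0.21 in YEPD and 0.22 in YC. Were the table in natural logarithms, 2 members would reach 1.5-fold.

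**Figure D1:**
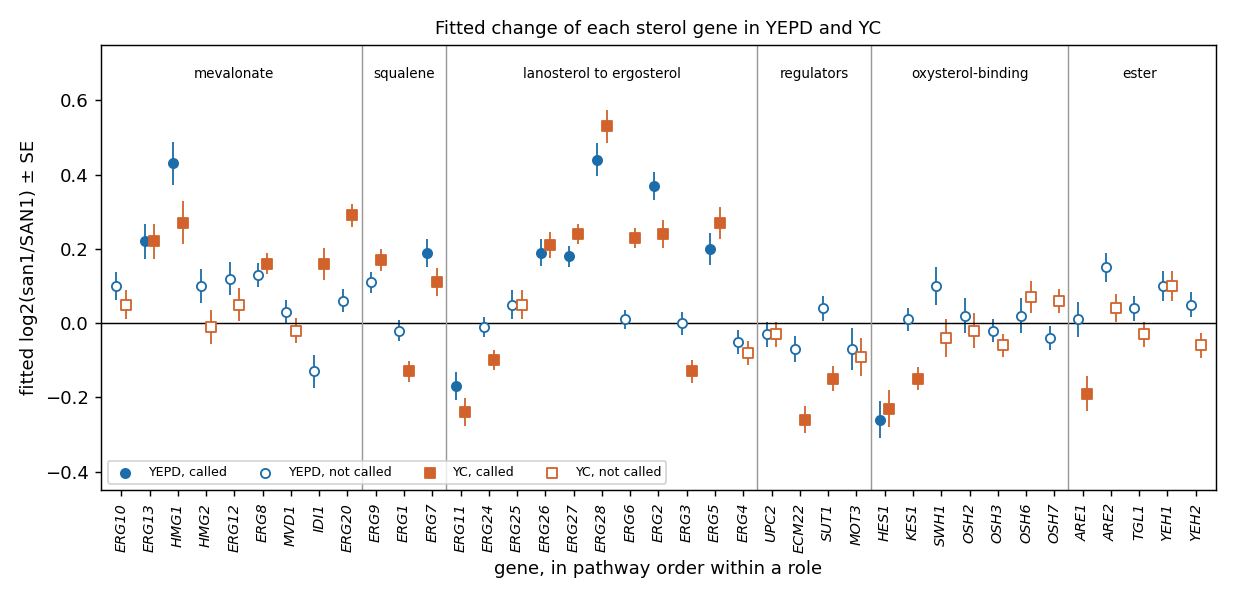
Fitted log2 ratio of san1 over SAN1 (y axis) with its standard error for the 39 tested sterol genes (x axis, grouped by role), circles for YEPD and squares for YC, filled where the gene was called. ERG28 stands highest in both media (0.44 and 0.53), and ERG11 and HES1 lie below 0 in both.

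The count in YEPD was 6 without YEPD array 1, 3 or 5 and 5 without array 4. It was also 5 with arrays 1 and 4, 2 and 5, and 3 and 6 averaged, as if each of these shared its RNA, which the labels do not say, and the YC count was then 16. Deviations were taken over all genes from the mean of the 3 arrays of a medium and dye orientation. Between arrays 1 and 4, 2 and 5, and 3 and 6 they correlated at 0.37, 0.23 and 0.03 in YEPD. In YC these correlations were 0.37, 0.52 and -0.22. Deviations within an orientation are tied to each other, and so are these correlations. The 6 arrays of a medium may not be independent.

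Genes of growth state also differed between san1 and SAN1 in YC. Of 20 general stress genes, 14 rose there (70.0%, where 13.0% of all genes did). The median of that list on YC arrays 1 to 6 was -0.01, 0.64, 0.42, 0.04, 0.63 and 0.36. Of the 20 ribosome biogenesis genes, 4 fell in YC (20.0%, where 11.8% of all genes did) and 16 did not pass, and the list's medians on these arrays were 0.15, -0.21, -0.08, 0.19, -0.24 and -0.08. The sterol synthesis genes had medians of 0.13, 0.14, 0.10, 0.16, 0.11 and 0.12 on those arrays and of 0.06 to 0.14 on the YEPD arrays. Their median was above 0 on every array and spanned 0.10 to 0.16 in YC, where that of the stress list spanned -0.01 to 0.64. Without YC arrays 1 and 4, 2 and 5, or 3 and 6, the number of sterol genes called in YC was 21, 20 and 14. The part of growth state in the sterol gene values was not tested.

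**Figure D2:**
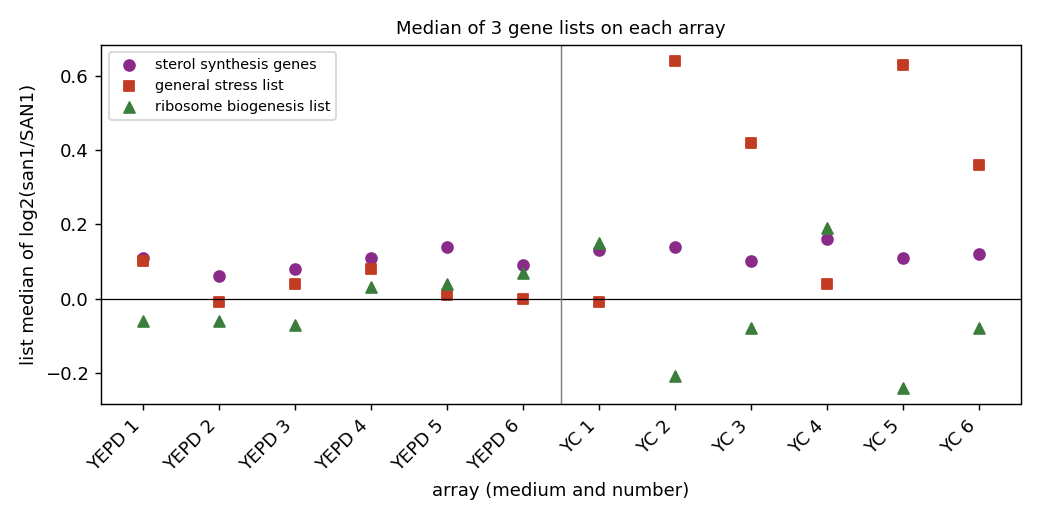
Median log2 ratio of san1 over SAN1 (y axis) over the sterol synthesis genes (circles), the general stress list (squares) and the ribosome biogenesis list (triangles) on each of the 12 arrays (x axis). The sterol medians stay between 0.06 and 0.16, while the stress medians on YC arrays run from -0.01 to 0.64.

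The mevalonate part runs from acetyl-CoA to farnesyl diphosphate. Of its 9 genes, 2 rose in YEPD (22.2%, where 1.73% of all genes did). In YC 5 rose (55.6%, where 13.0% of all genes did), and none passed as lower in either medium. HMG1 (YML075C), which encodes the main HMG-CoA reductase of aerobic cells, lay between 0.23 and 0.75 on YEPD arrays (median 0.36) and between 0.18 and 0.46 on YC arrays (median 0.22). It was above 0 on 12 of 12 arrays, with the highest YEPD values on arrays 4 and 6. The fitted rise was 0.43 in YEPD (SE 0.0577, n = 6, adjusted p = 0.00095), or 1.35-fold, and 0.27 in YC (SE 0.0577, n = 6, adjusted p = 0.0059). In YEPD, HMG1 ranked number 10 from the top of the 5890 genes. The difference between media did not pass (-0.16, SE 0.0816, adjusted p = 0.21). Of all pairs among the 12 arrays, YEPD 4 and 6 had the smallest SD of their difference over genes, 0.106. HMG1 stayed called with these arrays averaged or with any single array left out.

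ERG13 (YML126C), the HMG-CoA synthase gene just upstream, lay between 0.07 and 0.38 in YEPD (median 0.20) and between 0.08 and 0.36 in YC (median 0.21), again above 0 on all 12 arrays. The fitted change was 0.22 in both media (SE 0.0463, n = 6 each, adjusted p = 0.024 in YEPD and 0.0056 in YC). The YEPD call ended without YEPD array 3, 4, 5 or 6 (adjusted p 0.064 to 0.11) and with YEPD arrays 4 and 6 averaged (0.078).

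ERG20 (YJL167W) encodes farnesyl diphosphate synthase, the last enzyme before the routes to sterols, ubiquinone, dolichol and protein prenylation diverge. Its values were -0.08 to 0.14 in YEPD (median 0.07) and 0.14 to 0.44 in YC (median 0.29), with the lowest YC array about level with the highest YEPD array. It rose in YC (0.29, SE 0.0313, n = 6, adjusted p = 9.5e-05) and did not pass in YEPD (0.06, adjusted p = 0.58). The difference between media passed (0.23, SE 0.0443, adjusted p = 0.013). IDI1 (YPL117C), the isopentenyl diphosphate isomerase gene one step earlier, showed the widest gap between media of all tested members. It lay below 0 on 5 of 6 YEPD arrays (lowest -0.23, median -0.15, highest 0.10) and above 0 on 6 of 6 YC arrays (lowest 0.05, median 0.16, highest 0.30). The difference was 0.29 (SE 0.0614, adjusted p = 0.016). In YC alone IDI1 rose by 0.16 (SE 0.0434, adjusted p = 0.017), a call that ended without YC array 3, 4 or 6 (adjusted p 0.05 to 0.058), with arrays n and n plus 3 averaged (0.055) and without YC arrays 3 and 6 (0.14). In YEPD it did not pass (-0.13, adjusted p = 0.24).

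ERG8 (YMR220W), phosphomevalonate kinase, was above 0 on all 11 arrays that measured it and passed in YC (0.16, SE 0.029, adjusted p = 0.0032) but not in YEPD (0.13, adjusted p = 0.068). The thiolase gene ERG10 (YPL028W), the mevalonate kinase gene ERG12 (YMR208W) and the decarboxylase gene MVD1 (YNR043W) passed in neither medium, with fitted values from -0.02 to 0.12.

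The second HMG-CoA reductase gene, HMG2 (YLR450W), did not pass either (0.10 in YEPD, adjusted p = 0.46, and -0.01 in YC, adjusted p = 0.89). On every array its ratio lay below that of HMG1. The difference between the paralogs was 0.30 ± 0.09 (SD, n = 12 arrays). It passed an exact two-sided sign-flip test over arrays (p = 0.00049, the smallest that 12 arrays allow, adjusted p = 0.0034 over 7 pairs). This test, used for all 7 pairs, took the arrays as independent and had no dye term. The arrays of a medium may not be independent, so its p-values may be too small. No sign-flip result with arrays averaged is given. The paralog comparison was also added after the values were seen. On YEPD arrays 4 and 6, where HMG1 was highest, HMG2 was highest as well (0.32 and 0.28). Whether the spots of these related genes read each other's RNA was not tested.

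Farnesyl diphosphate is drawn into sterols by squalene synthase, ERG9 (YHR190W), with YEPD values from -0.07 to 0.27 and YC values from 0.08 to 0.25. It passed in YC (0.17, SE 0.0285, adjusted p = 0.0015) and not in YEPD (0.11, adjusted p = 0.077). ERG9 carried a dye effect, since its YEPD mean was -0.01 on arrays 1 to 3 and 0.23 on arrays 4 to 6 (dye term adjusted p = 0.018). ERG1 (YGR175C), squalene epoxidase, the first oxygen-using step, was near 0 in YEPD (-0.02) and below 0 on 6 of 6 YC arrays (lowest -0.25, median -0.10, highest -0.07), where it fell (-0.13, SE 0.0291, adjusted p = 0.0087). The ERG1 call ended with YC fitted alone (adjusted p = 0.057), with arrays averaged (0.058) and without YC arrays 3 and 6 (0.13). Lanosterol synthase, ERG7 (YHR072W), rose in YEPD (0.19, SE 0.0376, adjusted p = 0.015) and in YC (0.11, SE 0.0376, adjusted p = 0.045). The ERG7 call was lost in YEPD without YEPD array 1, 4 or 6 (adjusted p 0.074 to 0.085). In YC it was lost without YEPD array 1, 3, 5 or 6 or YC array 1, 3, 4 or 6 (adjusted p 0.052 to 0.16). With arrays averaged it was lost in both media (0.094 and 0.10). Of 28 alternatives, 16 ended the ERG7 call in YC. Among them were scaling to a common spread (0.058), quantile normalization (0.065), YC fitted alone (0.081) and YC arrays 3 and 6 left out (0.24). In the main fit, neighbouring steps had opposite signs in YC, with ERG9 and ERG7 higher and ERG1 between them lower.

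Beyond lanosterol, 5 of 11 genes rose (45.5%) and 1 fell (9.09%) in YEPD, where 1.73% and 0.323% of all genes did. In YC 6 rose (54.5%) and 3 fell (27.3%), where 13.0% and 11.8% of all genes did. ERG28 (YER044C) encodes a membrane protein of the endoplasmic reticulum that holds several of these enzymes together. Its values were 0.36 to 0.53 in YEPD (median 0.44) and 0.33 to 0.74 in YC (median 0.55), so that it was above 0.3 on every array. The fitted rise was 0.44 in YEPD (SE 0.0444, n = 6, adjusted p = 0.00016) and 0.53 in YC (SE 0.0444, n = 6, adjusted p = 1.3e-05), or 1.36-fold and 1.44-fold. It ranked number 9 of 5890 from the top in each medium. The difference between media did not pass (0.08, SE 0.0628, adjusted p = 0.41).

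Erg28 is known to tether the demethylation complex of Erg25, Erg26 and Erg27, which removes methyl groups from the sterol ring. ERG26 (YGL001C), the decarboxylase gene, lay between 0.11 and 0.30 in YEPD (median 0.18) and between 0.08 and 0.30 in YC (median 0.22). ERG27 (YLR100W), the ketoreductase gene, lay between 0.04 and 0.28 in YEPD (median 0.20) and between 0.08 and 0.35 in YC (median 0.26). Both were above 0 on 12 of 12 arrays.

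ERG26 rose by 0.19 in YEPD (SE 0.0355, adjusted p = 0.012) and by 0.21 in YC (SE 0.0355, adjusted p = 0.0016). ERG27 rose by 0.18 (SE 0.0275, adjusted p = 0.0023) and 0.24 (SE 0.0275, adjusted p = 0.00014). ERG27 read higher on arrays 4 to 6 than on arrays 1 to 3 in both media (means 0.27 against 0.09 in YEPD and 0.32 against 0.16 in YC, dye term adjusted p = 0.016), and its YEPD call ended with no dye term in the fit (adjusted p = 0.069) or with arrays n and n plus 3 averaged (0.052). The ERG26 call in YEPD ended without YEPD array 1 (adjusted p = 0.061) or 3 (0.06) and with arrays averaged (0.062). ERG25 (YGR060W), the oxygen-using methyl oxidase of the same complex, stood at 0.05 in each medium and did not pass (adjusted p = 0.76 and 0.39).

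ERG2 (YMR202W), the sterol isomerase gene, lay between 0.22 and 0.48 in YEPD (median 0.37) and between 0.10 and 0.37 in YC (median 0.23). It rose by 0.37 in YEPD (SE 0.0378, n = 6, adjusted p = 0.00016) and by 0.24 in YC (SE 0.0378, n = 6, adjusted p = 0.0011), and ranked number 16 from the top in YEPD. ERG5 (YMR015C), a cytochrome P450 that acts as the sterol side-chain desaturase, lay between 0.10 and 0.32 in YEPD (median 0.19) and between 0.15 and 0.51 in YC (median 0.23). Its rise was 0.20 in YEPD (SE 0.0427, adjusted p = 0.031) and 0.27 in YC (SE 0.0427, adjusted p = 0.0012). The YEPD call of ERG5 ended without any one of YEPD arrays 1 to 5 (adjusted p 0.06 to 0.14) and with arrays averaged (0.19), while that of ERG2 held under both.

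ERG6 (YML008C), the sterol methyltransferase that gives fungal sterols their extra side-chain carbon, differed between media. On YEPD arrays it lay around 0 (lowest -0.10, median 0.03, highest 0.07). On YC arrays it lay between 0.18 and 0.26 (median 0.24), and the ranges of the media did not overlap. It rose in YC (0.23, SE 0.0267, n = 6, adjusted p = 0.00017) and the difference between media passed (0.22, SE 0.0378, adjusted p = 0.0084).

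Against these rises, ERG11 (YHR007C) fell in both media. It encodes lanosterol demethylase, the cytochrome P450 that azole antifungals inhibit. Its values were -0.28 to -0.03 in YEPD (median -0.19) and -0.35 to -0.09 in YC (median -0.26), all of them below 0. The fit gave -0.17 in YEPD (SE 0.0382, n = 6, adjusted p = 0.042) and -0.24 in YC (SE 0.0382, n = 6, adjusted p = 0.0011). The YEPD call was narrow and ended when any 1 of the 6 YEPD arrays was left out (adjusted p 0.058 to 0.16) or any of YC arrays 2 to 6 (0.051 to 0.065), with arrays averaged (0.15) and with no dye term (0.093).

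The reductase gene ERG24 (YNL280C), next after ERG11, and the desaturase gene ERG3 (YLR056W) were near 0 in YEPD (-0.01 and 0.00) and fell in YC (-0.10, adjusted p = 0.016, and -0.13, adjusted p = 0.012). ERG24 lost its call without YC array 2 (adjusted p = 0.051), with no dye term (0.052) and with arrays averaged (0.087). ERG3 showed one of the clearest dye effects among the members, with YEPD means of 0.14 on arrays 1 to 3 and -0.15 on arrays 4 to 6 and YC means of -0.03 and -0.22 (dye term adjusted p = 0.0096). The YC call of ERG3 ended with no dye term (adjusted p = 0.13), with arrays averaged (0.052) and without YC arrays 2 and 5 (0.078) or 3 and 6 (0.092). ERG4 (YGL012W), the last enzyme, did not pass (-0.05 and -0.08). Among the genes of the oxygen-using enzymes, a grouping made after the values were seen, ERG1, ERG3 and ERG11 fell in YC, ERG5 rose and ERG25 did not pass.

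**Figure D3:**
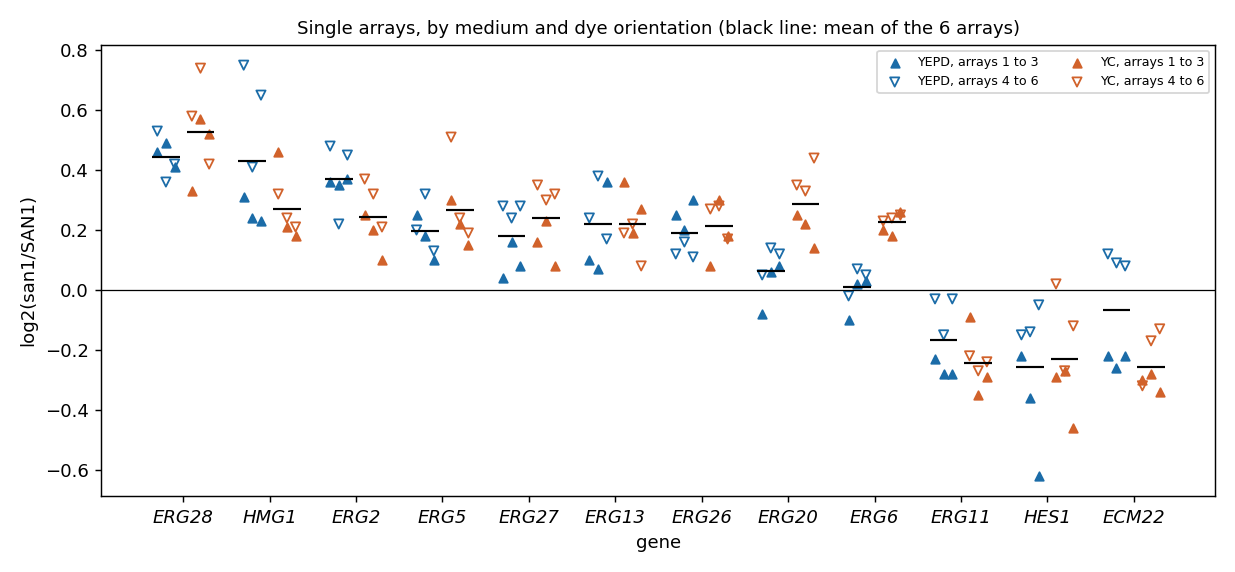
Log2 ratio of san1 over SAN1 (y axis) on single arrays for the 12 members called with a fitted change of at least 0.2 in a medium (x axis). Filled triangles are arrays 1 to 3, open triangles arrays 4 to 6, blue for YEPD and orange for YC, and lines are means of the 6 arrays. ERG28, HMG1 and ERG2 lie above 0 on all arrays, ERG6 is separate between media, and ECM22 in YEPD splits by dye orientation.

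None of the 4 regulator genes passed in YEPD in limma's fit, and 0 had an unadjusted p under 0.05. In YC, ECM22 (YLR228C) and SUT1 (YGL162W) fell. ECM22, a zinc-cluster activator of ERG genes, lay between -0.34 and -0.13 on YC arrays (median -0.29) and fell by 0.26 (SE 0.0358, n = 6, adjusted p = 0.00053), which placed it number 54 from the bottom of 5890. In YEPD it was -0.26 to -0.22 on arrays 1 to 3 and 0.08 to 0.12 on arrays 4 to 6, so its YEPD mean of -0.07 joins opposite signs in the 2 dye orientations (dye term adjusted p = 0.018). SUT1, a regulator of sterol uptake, lay between -0.21 and -0.07 on YC arrays, fell by 0.15 there (SE 0.0339, adjusted p = 0.0075) and had a fitted value of 0.04 in YEPD. The SUT1 call in YC ended without YC arrays 3 and 6 (adjusted p = 0.097).

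For both genes the difference between media passed (ECM22 -0.19, SE 0.0506, adjusted p = 0.037, and SUT1 -0.19, SE 0.0479, adjusted p = 0.03). The ECM22 difference was lost without YEPD array 1, 3, 4, 5 or 6 or YC array 3, 4, 5 or 6 (adjusted p 0.053 to 0.093), and that of SUT1 without YEPD array 1, 3, 4 or 6 or YC array 3 or 6 (0.054 to 0.073). Of 27 alternatives, 17 ended the ECM22 difference, with adjusted p up to 0.16 (no dye term, quantile normalization). The SUT1 difference ended in 12 of 27, up to 0.13 without YC arrays 3 and 6. UPC2 (YDR213W), the paralog of ECM22 and the activator that responds most strongly to sterol depletion, stood at -0.03 in both media (adjusted p = 0.90 and 0.54), and the repressor gene MOT3 (YMR070W) did not pass either. UPC2 lay above ECM22 on 9 of 12 arrays, by 0.13 ± 0.14 (SD, n = 12, exact sign-flip p = 0.0078, adjusted p = 0.014). That gap was 0.23 ± 0.12 (SD, n = 6) in YC and 0.04 ± 0.10 (SD, n = 6) in YEPD. The arrays on which UPC2 lay below ECM22 were YEPD arrays 4 to 6, all of the same dye orientation.

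Of the 7 oxysterol-binding protein genes, whose products carry sterols and phosphoinositides between membranes, HES1 (YOR237W) fell in both media and KES1 (YPL145C) in YC. In YEPD 14.3% fell, where 0.323% of all genes did. In YC 28.6% fell, where 11.8% of all genes did. The called share in YC was thus near the 24.8% of all genes called there in either direction. HES1 lay between -0.62 and -0.05 in YEPD (median -0.18) and between -0.46 and 0.02 in YC (median -0.27), with array 3 the lowest in each medium and YC array 4 the only array above 0. The fall was 0.26 in YEPD, fitted as -0.26 (SE 0.0494, n = 6, adjusted p = 0.013), which was number 19 from the bottom of 5890, and -0.23 in YC (SE 0.0494, n = 6, adjusted p = 0.0057). HES1 also carried a dye effect, with YEPD means of -0.40 on arrays 1 to 3 and -0.11 on arrays 4 to 6 (dye term adjusted p = 0.032). Its YEPD call ended without YEPD array 4 (adjusted p = 0.059) or 5 (0.053) and with no dye term (0.11), and its YC call without YC arrays 3 and 6 (0.073).

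KES1, the closest paralog of HES1, was below 0 on 6 of 6 YC arrays (lowest -0.22, median -0.14, highest -0.09) and fell there (-0.15, SE 0.0312, adjusted p = 0.0058). In YEPD its mean was -0.12 on arrays 1 to 3 and 0.14 on arrays 4 to 6, and the fitted value was 0.01. The difference between media passed (-0.16, SE 0.0442, adjusted p = 0.041) and was lost without YEPD array 1, 3, 4, 5 or 6 or YC array 3, 4, 5 or 6 (adjusted p 0.061 to 0.10). Of 27 alternatives, 18 ended it, with the highest adjusted p, 0.16, when the fit had no dye term. HES1 lay below KES1 on 11 of 12 arrays, by -0.18 ± 0.17 (SD, n = 12, exact sign-flip p = 0.0039, adjusted p = 0.0091). That gap was -0.27 ± 0.15 (SD, n = 6) in YEPD and only -0.09 ± 0.14 (SD, n = 6) in YC.

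The other 5, SWH1 (YAR042W), OSH2 (YDL019C), OSH3 (YHR073W), OSH6 (YKR003W) and OSH7 (YHR001W), passed in neither medium, with fitted values between -0.06 and 0.10. SWH1 was read as the mean of 2 rows of the table, and with its first row kept the values were 0.16 in YEPD and -0.06 in YC (adjusted p = 0.40 and 0.50). The pairs SWH1 with OSH2 (0.03 ± 0.13, SD, n = 12) and OSH6 with OSH7 (0.05 ± 0.12, SD, n = 11) did not differ beyond the spread in the exact sign-flip test (adjusted p = 0.45 and 0.26).

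Sterol esters are formed by the acyltransferases Are1 and Are2 and cleaved by the lipases Tgl1, Yeh1 and Yeh2. Of these 5 genes, 0 passed in YEPD in limma's fit, where 2 had an unadjusted p under 0.05, and ARE1 (YCR048W) fell in YC. The called share in YC, 20.0%, was near the 24.8% of all genes called there, 11.8% as lower. ARE1 lay between -0.32 and -0.11 on YC arrays, below 0 on 6 of 6 (fitted -0.19, SE 0.0475, adjusted p = 0.013), and between -0.18 and 0.21 in YEPD (0.01). The YC call of ARE1 ended with arrays averaged (adjusted p = 0.067) and without YC arrays 1 and 4 (0.086) or 3 and 6 (0.085). The difference between media did not pass (-0.20, SE 0.0672, adjusted p = 0.072). ARE2 (YNR019W), the main acyltransferase in aerobic cells, stood at 0.15 in YEPD (adjusted p = 0.068) and 0.04 in YC. ARE1 lay below ARE2 on 11 of 12 arrays, by -0.18 ± 0.16 (SD, n = 12, exact sign-flip p = 0.0039, adjusted p = 0.0091). That gap was -0.14 ± 0.20 (SD, n = 6) in YEPD and -0.23 ± 0.08 (SD, n = 6) in YC. In the reference annotation the reading frame YCR050C overlaps ARE1, and it stood at -0.21 in YC (adjusted p = 0.0042) and 0.00 in YEPD, so the 2 rows cannot be told apart if the spots do not separate strands.

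YEH1 (YLL012W) was above 0 on 6 of 6 YEPD and 5 of 6 YC arrays at 0.10 in each medium without passing (adjusted p = 0.41 and 0.10). YEH2 (YLR020C) and TGL1 (YKL140W) did not pass, and both carried a dye effect (adjusted p = 0.013 and 0.033). The YEH1 and YEH2 pair did not pass (0.10 ± 0.18, SD, n = 12, exact sign-flip adjusted p = 0.094) but did without YEPD array 1 (0.13, adjusted p = 0.027). AUS1 (YOR011W), an ATP-binding cassette transporter for sterol uptake in anaerobic cells, was measured on 9 arrays and was not tested because arrays 4 to 6 gave 1 value in YEPD. Its YEPD values were 0.05, 0.27, 0.20 and 0.18, and its YC values were -0.12, -0.01, -0.15, -0.10 and -0.02, so the media did not overlap.

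**Figure D4:**
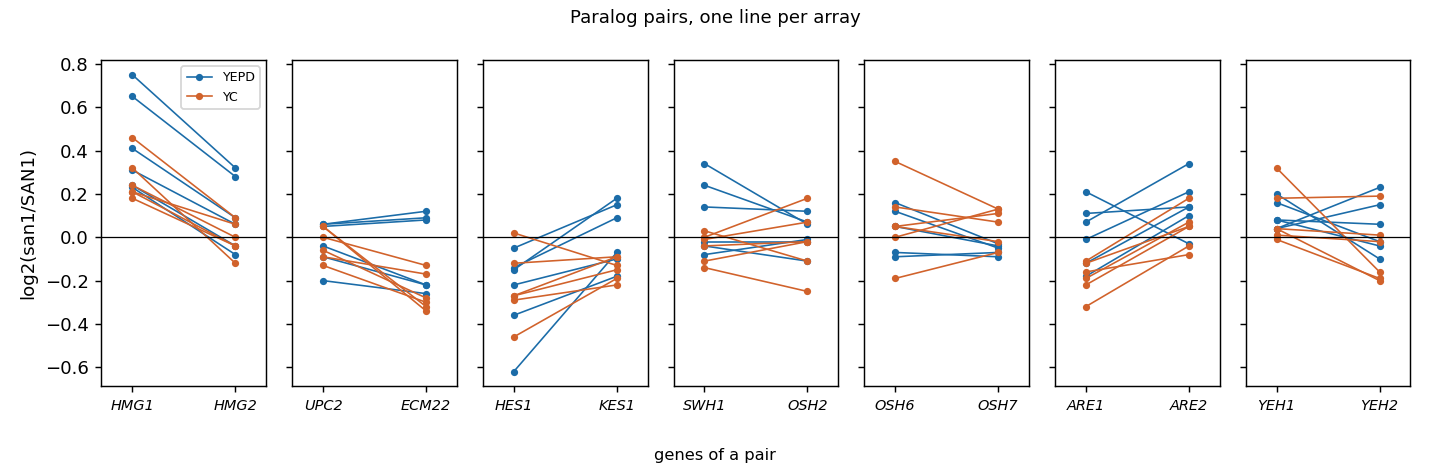
Log2 ratio of san1 over SAN1 (y axis) for the genes of 7 paralog pairs (x axis), with a line for each array, blue for YEPD and orange for YC. HMG1 lies above HMG2 on all 12 arrays, while HES1 lies below KES1 and ARE1 below ARE2 on 11 of 12.

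Between media, 6 of the 39 tested genes passed, a share of 15.4% where 9.78% of all genes did, 5.5% as higher in YC and 4.28% as lower. ERG6, ERG20 and IDI1 were higher in YC relative to YEPD, and ECM22, SUT1 and KES1 were lower. The first 3 kept the call without any single array, and the other 3 did not. Of the 12 members called in YC and not in YEPD, these 6 are the ones for which the difference itself passed. For ERG1, ERG3, ERG8, ERG9, ERG24 and ARE1 it did not. With arrays n and n plus 3 averaged, or without YC arrays 3 and 6, 0 members passed for the difference.

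**Figure D5:**
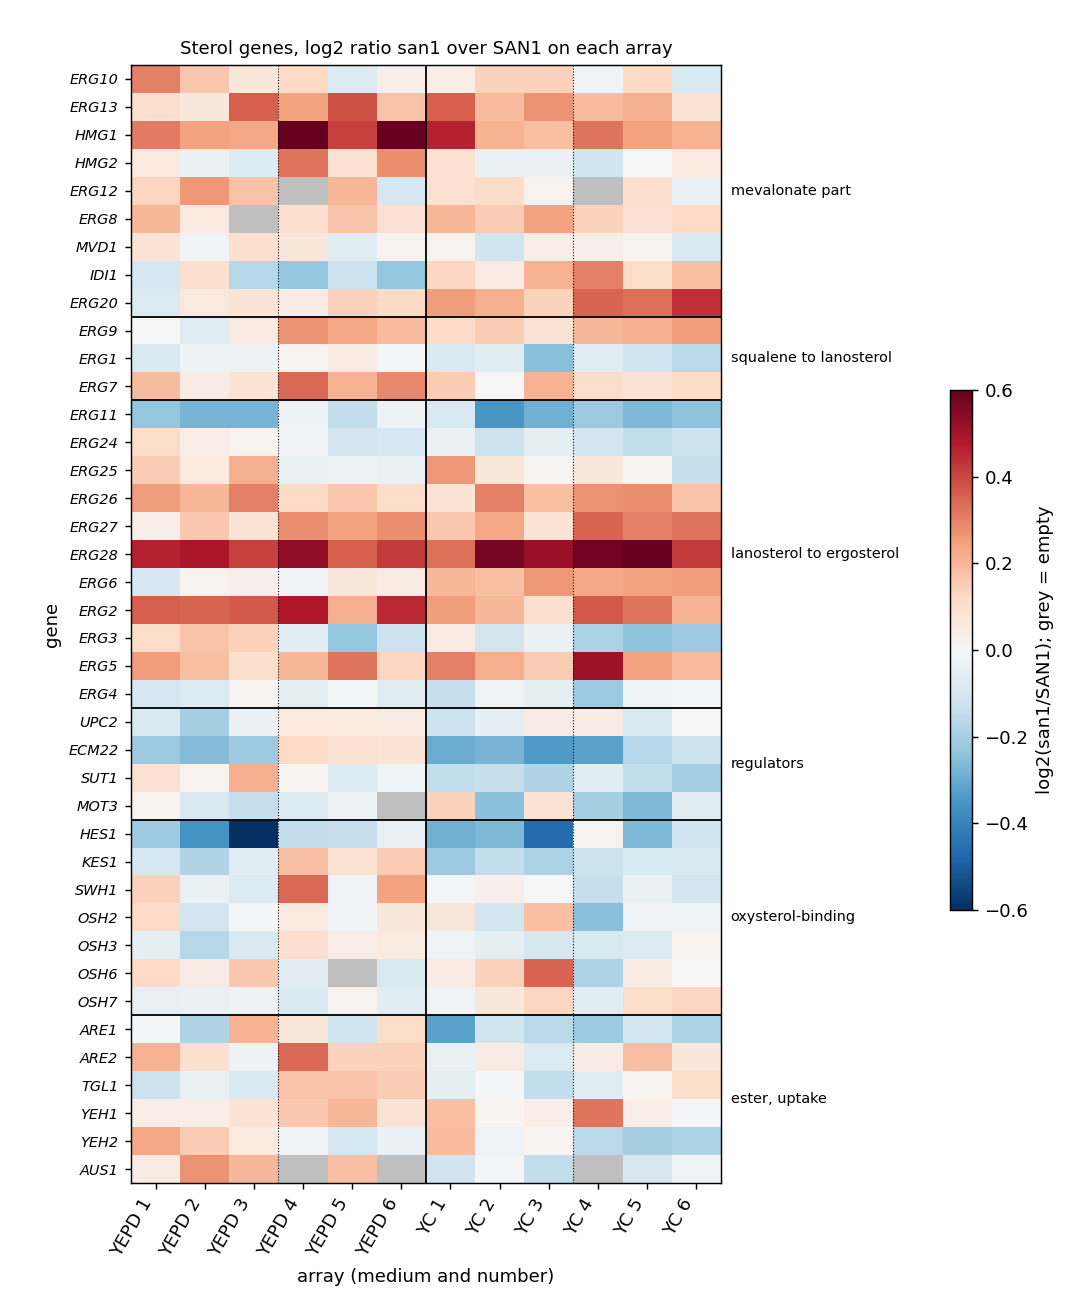
Log2 ratio of san1 over SAN1 (colour, ending at 0.6 in either direction, larger values in the end colour, grey where empty) for the 40 sterol genes (rows, by role) on the 12 arrays (columns). A dotted line parts the dye orientations of a medium. ERG28, ERG2, HMG1, ERG13, ERG26, ERG27 and ERG5 are above 0 on all 12 arrays, and ERG11 is below 0 on all 12.

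Across the 12 arrays, 9 of the 39 tested genes kept 1 sign on every array that measured them, where 1.71% of all genes tested did. They were ERG2, ERG5, ERG8, ERG13, ERG26, ERG27, ERG28 and HMG1 above 0 and ERG11 below 0. A dye term was called for 9 members (23.1%), namely ERG3, ERG9, ERG27, ECM22, HES1, KES1, OSH6, TGL1 and YEH2, where it was called for 16.4% of all genes. Genes beside the members on the chromosome were looked up for names and order in the RefSeq table. Of 18 tested genes next to a member called in YEPD, 0 were called there by limma, where 2.05% of all genes were. Of these 18, 1 had an unadjusted p under 0.05. Of 42 next to a member called in YC, 10 were called, 6 of them with the sign of the member. That share, 23.8%, was near the 24.8% of all genes called in YC.

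Partners of the pathway outside the members were taken from a list of 31 genes of electron donors, sterol sensing, enzyme degradation, transport and export. In YEPD 1 rose, CYB5 (3.23%, where 1.73% of all genes did). In YC 4 rose, a share of 12.9% that was level with the 13.0% of all genes, and 7 fell (22.6%, where 11.8% of all genes did). Cytochrome b5, the product of CYB5, hands electrons to sterol desaturases and P450 enzymes. Its gene ranged from 0.40 to 0.64 on YEPD arrays and from 0.54 to 1.07 on YC arrays, always above 0, with fitted rises of 0.52 (adjusted p = 0.00024) and 0.78 (adjusted p = 7.2e-06). DAP1, whose haem-binding product assists Erg11, rose in YC (0.22, adjusted p = 0.00076), and so did ERG29 (0.15, adjusted p = 0.014) and the sterol-export gene PRY1 (0.31, adjusted p = 0.0053). NCP1, the P450 reductase that serves Erg11, fell in YC (-0.12, adjusted p = 0.019). NSG1, a homolog of mammalian INSIG that stabilizes Hmg2, and SSM4, the ubiquitin ligase known to degrade Erg1, fell as well (both -0.15, adjusted p = 0.022 and 0.02). The other genes that fell were ARV1 (-0.13), YSP2 (-0.18), PRY3 (-0.19) and the sterol acetyltransferase gene ATF2 (-0.10). The ligase genes HRD1 and HRD3, which act on Hmg2, did not pass (-0.08 and 0.05 in YC).

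Other branches lead from farnesyl diphosphate to ubiquinone, dolichol and prenylated proteins. Of 10 tested genes of these branches, 0 passed in YEPD in limma's fit, where 1 had an unadjusted p under 0.05, and 1 of 10 was called in YC, where 24.8% of all genes were. It was CDC43, a prenyltransferase subunit gene, which fell (-0.09, adjusted p = 0.02). Of 11 tested haem and hypoxia genes, 2 rose and 2 fell in YEPD (36.4% called, where 2.05% of all genes were). In YC 5 rose and 3 fell (72.7%, where 24.8% of all genes were called). Like the members, this list was chosen with earlier results of these data known. The cytochrome c gene CYC1 (0.46 and 0.67) and the flavohaemoglobin gene YHB1 (0.41 and 0.69) rose in both media. From the same list, ANB1 (-0.23 and -0.25) and TIR1 (-0.32 and -0.31) fell in both. Called in YC only were CYC7 (0.39), CTT1 (0.51) and COX5B (0.45), which rose, and AAC3 (-0.11), which fell. HAP1, the haem-responsive activator gene, spread from -0.76 to 0.27 in YEPD and from -0.58 to 0.06 in YC and did not pass (-0.32 and -0.25, adjusted p = 0.19 and 0.091). The part of these haem and hypoxia genes in the sterol gene values was not tested.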

How the data were processed

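The authors deposited 1 log ratio per reading frame and array, taken here as log2, already centred (column medians within 0.0033 of 0). For the scanner, background correction, normalization and log base, the entry is: not given in the sources used here. Values were read as channel 2 over channel 1 from the sign of the SAN1 row and turned to san1 over SAN1. YC arrays 1 to 3 carry a description that names YEPD, and were kept as YC after their titles and sources. Of 6204 rows, 5704 matched a RefSeq R64 locus tag, 42 matched a synonym and 458 neither. Rows of a gene were averaged. Arrays were centred on their median. Genes needed 2 values per medium and dye orientation. Per gene, limma 3.58.1 in R 4.3.3 fitted a mean per medium and 1 dye term over 12 arrays, with two-sided tests. The fit was tested on simulated data. Intensities were not used, so the number of arrays limits precision. Paralog pairs were compared by exact sign-flip tests over arrays, which were taken as independent, with no dye term. Alternatives covered centring, scaling, dye term, filter, block, averaging and arrays left out.

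The members and lists were chosen with earlier results of these data known. All 40 members are described, and values per array are given for members called with a log2 change of at least 0.2 in a medium. Partner genes are named where called. The paralog comparison was added after the values were seen. Same-numbered arrays of the media were not treated as paired in the main fit. Their deviations correlated between -0.32 and 0.18. Deviations within an orientation are tied to each other, so these values cannot decide whether the numbers pair the media. Within a medium, arrays n and n plus 3 correlated between -0.22 and 0.52.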

Additional observations from a re-analysis of the deposited data

Results flagged for a closer look

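For 6 tested genes the change differed between media by the test of the difference itself. ERG6 (0.22), ERG20 (0.23) and IDI1 (0.29) were higher in YC minus YEPD, and ECM22 (-0.19), SUT1 (-0.19) and KES1 (-0.16) were lower. IDI1 had the widest gap of the 6, at -0.13 in YEPD and 0.16 in YC. In ECM22 and KES1 the YEPD arrays of the 2 dye orientations had opposite signs, and 9 members had a called dye term. The part of the dye in these differences was not tested beyond the dye term of the fit. With a separate dye term for each medium, 6 members passed for the difference.

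AUS1 was above 0 on all 4 YEPD arrays and below 0 on all 5 YC arrays that measured it, with a YC mean minus YEPD mean of -0.26. It was not tested in the main comparison. With at least 1 value asked of each dye orientation and medium, the fitted difference was -0.26. In YEPD, 1 dye orientation then rested on array 5 alone. The gap had been flagged from the same values, so this fit is no separate test of it. Of 78 groups of arrays examined for a sample standing apart, 0 held one.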

How the results depend on the processing

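Across 28 alternatives, no called change of a sterol gene turned its direction. Of 3225 member values, 147 lost and 15 gained a call. All alternatives kept 3 of 10 YEPD calls (ERG2, ERG28, HMG1), 14 of 22 YC calls and 0 of 6 calls for the difference. The count of 10 in YEPD became 5 with the replicate number as a block and with arrays n and n plus 3 averaged, 6 with YEPD arrays 4 and 6 averaged, and 5 to 11 with a single array left out. The count of 22 in YC became 14 without YC arrays 3 and 6, and 20 to 22 with a single array left out. The block ended the YEPD calls of ERG5, ERG7, ERG11, ERG13 and ERG26 (adjusted p 0.055 to 0.13). It also ended the YC calls of ERG7, ERG24 and IDI1 (0.059 to 0.088). The count of 6 for the difference became 3 with no dye term, with YEPD arrays 4 and 6 averaged or without YC arrays 2 and 5. It became 0 with the block, with arrays averaged or without YC arrays 3 and 6, and 3 to 7 with a single array left out. Higher calls for the difference were 3 of 6, and 3 of 4 with arrays scaled to a common spread or quantile normalized.

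Over all genes, averaging arrays n and n plus 3 gave 65 calls in YEPD, 816 in YC and 3 for the difference, against 121, 1460 and 576. The replicate number as a block gave 902 in YC and 49 for the difference, and each medium fitted alone 928 in YC. Without YC arrays 3 and 6 there were 547 in YC and 62 for the difference. No dye term gave 244 for the difference and YEPD arrays 4 and 6 averaged 201. With a single array left out the counts were 81 to 135 in YEPD, 988 to 1565 in YC and 169 to 800 for the difference. The block and the averaging leave fewer degrees of freedom. Otherwise the cause was not tested. The labels do not say which arrays share RNA, and with 6 arrays a medium small changes may be missed.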
